A study of Homo sapiens with 7 samples.

Results

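Distal 1p, the end of the short arm of chromosome 1 that makes up band 1p36, held 1503 of the 64657 MYCN summits listed for Kelly neuroblastoma cells, or 2.32% of the list. Its members are all summits on chromosome 1 below 28 Mb of the build hg19, chosen by position alone. They lay in 1143 separate intervals, and the remaining 5518 summits of chromosome 1 are set beside them. The last summit inside the segment, at 27998927, had a fold enrichment of 8.67, and the first one outside, at 28052137, had 6.50.

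Kelly is an established human neuroblastoma line with MYCN amplification, and the study measured where MYCN sits on chromatin by ChIP-seq (chromatin immunoprecipitation and sequencing). The labels describe 2 MYCN ChIP samples and 2 input samples of TAE684-resistant Kelly cells, kept 48 h in the ALK inhibitor TAE684 at 1 µM, and 2 MYCN ChIP samples with 1 input sample of TAE684-sensitive Kelly cells, kept 48 h in DMSO. Input is chromatin sequenced without immunoprecipitation. The list named for the resistant cells was byte for byte that of the sensitive cells, in all 64657 rows. Each of its rows carries the name of the sensitive list. The values below are therefore taken as those of the sensitive, DMSO-treated cells of 1 line, from 1 list for both ChIP samples. They carry no replicate error, no p-value was computed, and intervals cover counting error only.

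MYCN is a basic helix-loop-helix protein that pairs with MAX and prefers the E-box CACGTG, mostly at promoters and enhancers of active genes. Band 1p36 is often lost from one chromosome 1 in neuroblastomas with MYCN amplification. Genes mapped to it by textbook include CHD5, a chromatin remodeller studied as a tumour suppressor, KIF1B, a kinesin, CAMTA1 and CASZ1, transcription factors, MIR34A, a microRNA gene, and ARID1A, a subunit of the SWI/SNF chromatin remodelling complex. Which summits lie at these genes was not analysed here, because the gene table and promoter sequences at hand are on another build. For the same reason no sequence is shown.

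MYCN summits were dense in distal 1p. There were 53.7 summits per Mb in the segment, against 24.9 per Mb in the rest of chromosome 1, a ratio of 2.15 (95% CI 2.03 to 2.28). The segment makes up 11.2% of the chromosome up to its last peak and held 21.4% of its 7021 summits. The peak intervals covered 1.61% of the segment, against 0.750% of the rest of the chromosome. The rest includes 21.7 Mb around the centromere without a peak. With that stretch left out, the rest had 27.7 summits per Mb and the ratio was 1.94. Against the other part of the short arm alone, with 26.0 per Mb, it was 2.07. Extra or missing copies of a region change its ChIP and its input signal together, copy number was not measured here, and its part in these densities was not tested.

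The high density ran through most of the segment. Of its 28 bins of 1 Mb, 27 held a summit, with a median of 52.5 summits per bin and quartiles of 32.8 and 69.3. The 222 bins of the rest of chromosome 1 had a median of 21 summits, or 23.5 over the 200 that held any. In 26 of the 28 bins of distal 1p the number was above 23.5, while 28 of the 222 other bins, or 12.6%, were above the segment's median of 52.5. The highest single bin of the chromosome lay outside, with 138 summits.

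The 5 densest bins lay at different places along the segment. They were 1 to 2 Mb with 101 summits, 2 to 3 Mb with 88, 6 to 7 Mb with 87, 11 to 12 Mb with 83 and 27 to 28 Mb with 80. The bins with the fewest summits were 13 to 14 Mb with 0 summits, 4 to 5 Mb with 9, 12 to 13 Mb with 24, 24 to 25 Mb with 29, and 8 to 9 Mb and 14 to 15 Mb with 31 each. Neighbouring bins could differ widely, as the 83 and 24 summits between 11 and 13 Mb show. From 15 Mb onward the count per bin stayed between 29 and 80.

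**Figure D1:**
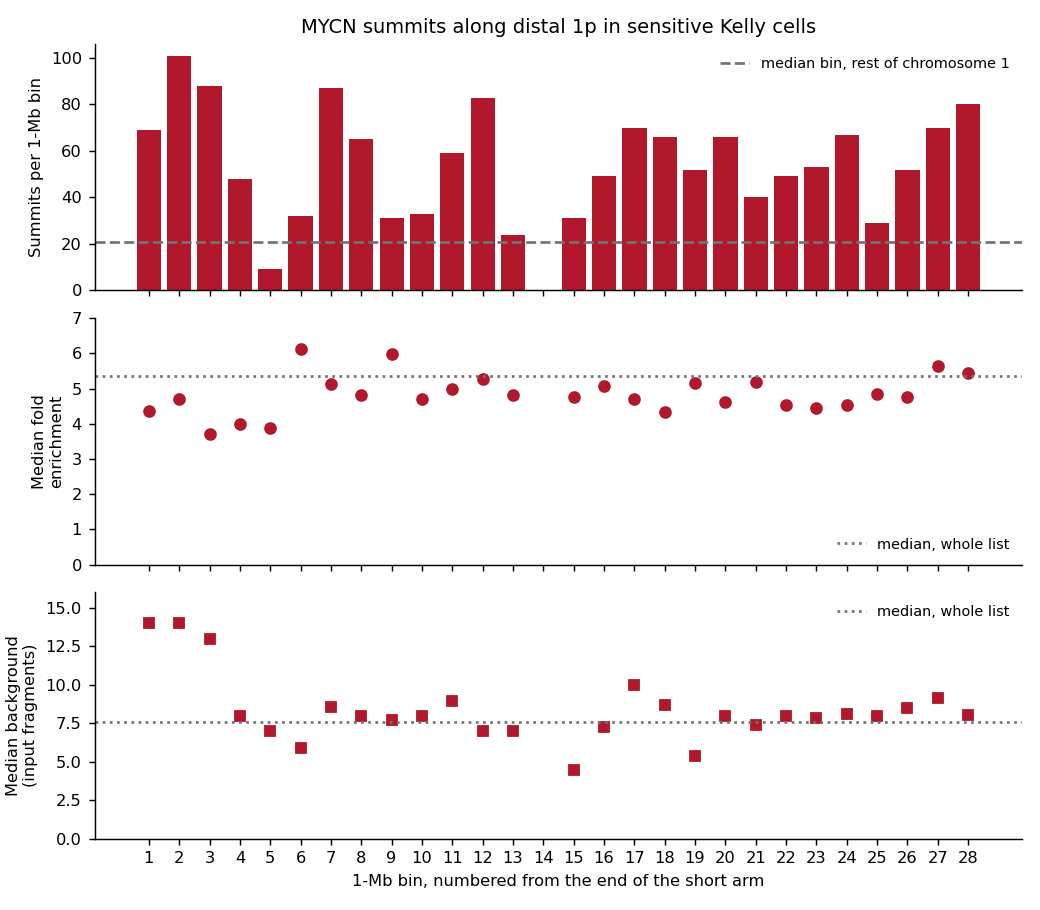
Each 1-Mb bin of distal 1p is shown by its number of summits (top, bars), the median of the authors' fold enrichment (middle, points) and the median local background in input fragments (bottom, squares), with bins numbered from the end of the short arm. The dashed line marks the median bin of the rest of chromosome 1 (21 summits) and the dotted lines the medians of the whole list (5.35 and 7.56). Bins 1 to 3 combine many summits with the highest backgrounds, 13 to 14 input fragments, and bin 14 is empty.

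Fold enrichment, the authors' ratio of scaled ChIP pileup to local background at a summit, was moderate in distal 1p. Its median was 4.77 in the segment (95% CI 4.65 to 4.91), with quartiles of 3.57 and 6.79. In the rest of chromosome 1 the median was 5.30 (95% CI 5.22 to 5.38), with quartiles of 3.81 and 7.40. The difference of the medians was -0.53, or -0.73 to -0.31 when the bounds of both intervals are combined. Among bins with 30 to 49, 50 to 69 and 70 or more summits, compared class by class, the differences were -0.44, -0.38 and 0.24. The combined bounds included 0 in each class. They are wider than a 95% interval of a difference, so this does not show equal medians. On the other chromosomes the medians in these classes were 5.37, 5.06 and 4.82, against 4.89, 4.65 and 4.82 in distal 1p. There the separate 95% intervals were apart in both classes under 70 summits, with distal 1p lower, and overlapped at 70 or more. In 23 of the 27 occupied bins of the segment the median lay below 5.35, the median of the whole list. The 4 bins above it were 5 to 6 Mb with 6.11, 8 to 9 Mb with 5.98, 26 to 27 Mb with 5.64 and 27 to 28 Mb with 5.45.

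Strong summits made up a smaller share of distal 1p, with separate 95% intervals that lay just apart. Of all summits in the list, 12.0% reached a fold enrichment of 10. In distal 1p 127 of the 1503 summits did (8.45%, 95% CI 7.09 to 9.97), against 595 of the 5518 in the rest of chromosome 1 (10.8%, 95% CI 9.98 to 11.6). Without the first 3 Mb the share in the segment was 9.48% (95% CI 7.91 to 11.2), an interval that overlaps that of the rest. It also overlapped when summits had to reach a −log10 q of 5 or 10, with the segment ending at 30 Mb and within each of 3 classes of bins of like density. The level of 20, reached by 0.778% of the list, was met by 6 summits of distal 1p (0.399%, 95% CI 0.147 to 0.867) and by 39 of the rest (0.707%, 95% CI 0.503 to 0.965), and these intervals overlap too. An overlap of separate intervals does not show that the shares are equal.

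The number of ChIP fragments over a summit, recovered from the authors' fold enrichment and p-value, had overlapping intervals in both parts. Its median was 69 in distal 1p (95% CI 66 to 72), with quartiles of 48 and 107.5, against 68 in the rest of chromosome 1 (95% CI 66 to 70), with quartiles of 43 and 111. With the bounds of both intervals combined, the difference of 1 fragment lay between -4 and 6. The lowest number was 16 in the segment and 13 in the rest. At least 252 fragments, or 90% of the highest number in the list, were found at 14 summits of distal 1p (0.931%, 95% CI 0.510 to 1.56) and at 46 of the rest (0.834%, 95% CI 0.611 to 1.11), beside 0.634% of all summits.

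Few summits of distal 1p had a low input. The local background is the peak caller's estimate of input fragments at a summit and cannot be below the genome-wide mean, which was 1.61. Of all summits in the list, 7.01% had a background equal to that mean. In distal 1p only 6 of 1503 did (0.399%, 95% CI 0.147 to 0.867), against 400 of 5518 in the rest of chromosome 1 (7.25%, 95% CI 6.58 to 7.97). The lowest 10% of the backgrounds reached up to 4.2 in the segment and up to 2 in the rest. Summits with more than 12 input fragments, 15.7% of the list, numbered 314 in the segment (20.9%, 95% CI 18.9 to 23), against 1390 in the rest (25.2%, 95% CI 24 to 26.4), a direction that turned against the remaining short arm alone, where the share was 15.7% (95% CI 14.2 to 17.2). The background thus spanned a narrower range in distal 1p, with quartiles of 6 and 12 input fragments around a median of 9, against 4.23 and 12.0 around 8.26.

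The few summits at the genome-wide mean were alone in their intervals, and most were covered by few ChIP fragments. They lay at 740312, 8730785, 14193586, 14421704, 14445879 and 18313541. The first had 73 ChIP fragments and a fold enrichment of 18.3. The other 5 had 16 to 23 fragments and fold enrichments between 4.32 and 6.04. The median over the 6 was 21.5 ChIP fragments, against 25 at the 400 summits at the mean in the rest of chromosome 1. Low fragment numbers at such summits were therefore not particular to distal 1p. Of the 6, 3 lay in the bin from 14 to 15 Mb. In blocks of 4 Mb, the share at the mean was at most 2.88% in any of the 7 blocks of the segment and 0% in 3 of them. It was above 2.88% in 35 of the 52 other occupied blocks of chromosome 1, with a median of 8% and a highest value of 72.7%.

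This share also differs between dense and sparse bins, so bins of like density were compared. In bins with 30 to 49 summits it was 1.28% in distal 1p (95% CI 0.349 to 3.24) and 5.41% in the rest of chromosome 1 (95% CI 4.34 to 6.65). In bins with 50 to 69 it was 0.364% (95% CI 0.0441 to 1.31) against 2.77% (95% CI 1.98 to 3.76). In bins with 70 or more it was 0 of 579 summits, with an upper bound of 0.635%, against 6 of 618 (0.971%, 95% CI 0.357 to 2.1). Against the rest of chromosome 1 the intervals were thus apart in the 2 lower density classes and overlapped in the highest. On the other chromosomes the share was 4.51% (95% CI 4.18 to 4.86), 1.36% (95% CI 1.12 to 1.62) and 0.506% (95% CI 0.386 to 0.650) in the same 3 classes, and there the interval was apart from that of distal 1p in the lowest class only. Median backgrounds in these classes were 7.56, 8.12 and 10 in distal 1p, against 8, 9 and 11 in the rest of chromosome 1 and 7, 8.4 and 9.8 on the other chromosomes. The intervals of distal 1p and the rest of chromosome 1 touched or overlapped in the 2 lower classes.

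**Figure D2:**
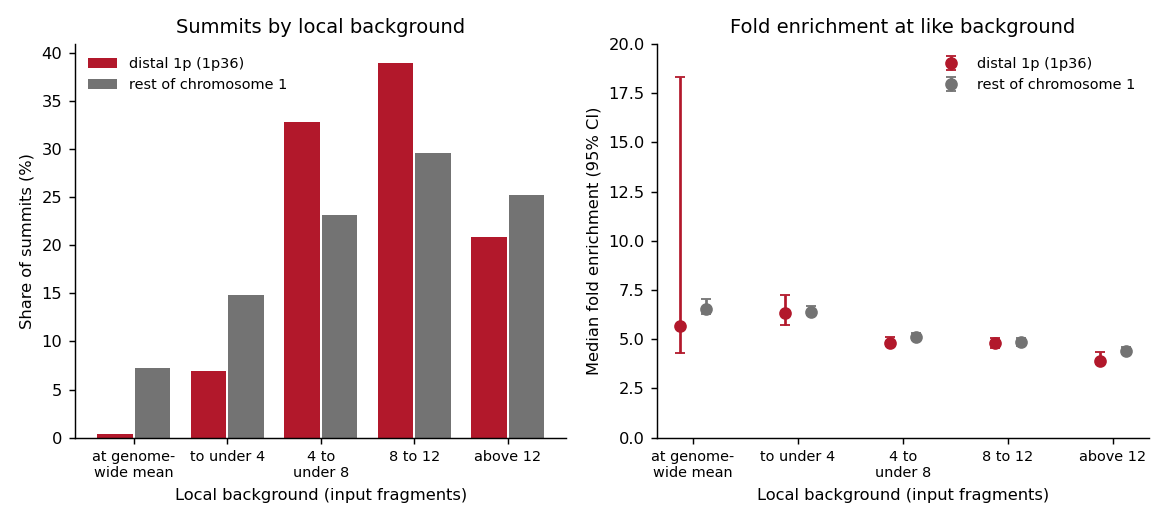
Summits of distal 1p (red, left in each pair) and of the rest of chromosome 1 (grey) are split by local background in input fragments. The left panel gives the share of each part's summits as bars, and the right panel the median fold enrichment with its 95% CI. Distal 1p has 0.399% of its summits at the genome-wide mean, against 7.25%. Its median fold enrichment is the lower one in all 5 classes, with overlapping intervals, and is 3.91 against 4.42 above 12 input fragments.

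Among summits of like background, the median fold enrichment was lower in distal 1p in every class, with intervals that overlapped between the parts. Such an overlap does not show equal medians. At the genome-wide mean it was 5.67 in distal 1p, from 6 summits, and 6.53 in the rest of chromosome 1. At 8 to 12 input fragments the median was 4.8 in distal 1p (95% CI 4.57 to 5.04) and 4.85 in the rest of chromosome 1 (95% CI 4.68 to 5.04), with 586 and 1635 summits. From above the mean to under 4 it was 6.34 (95% CI 5.70 to 7.27) against 6.41 (95% CI 6.22 to 6.67). At 4 to under 8 it was 4.82 (95% CI 4.63 to 5.12) against 5.14 (95% CI 4.98 to 5.30). Above 12 it was 3.91 (95% CI 3.74 to 4.34) against 4.42 (95% CI 4.25 to 4.61), with a median of 101 ChIP fragments against 116. The fold enrichment is divided by the background, so the 2 measures are not independent. As no summit of the list had more than 280 ChIP fragments, a high background also limits the fold enrichment that a summit can reach.

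The first 3 Mb differed from the remainder of the segment. They held 258 summits, or 86 per Mb, with a median background of 13.6 input fragments and a median fold enrichment of 4.11. The other 25 Mb held 49.8 summits per Mb, with a median background of 8 and a median fold enrichment of 4.91. A background above 12 was found at 66.3% of the summits in the first 3 Mb (95% CI 60.2 to 72) and at 11.5% in the other 25 Mb (95% CI 9.77 to 13.4). In these first 3 Mb, 9 of the 258 summits reached a fold enrichment of 10 (3.49%, 95% CI 1.61 to 6.52). The fold enrichment is divided by the background, and the part of the background in this share was not tested. The median number of ChIP fragments there was 84, against 65 in the other 25 Mb. This split was chosen after the values were seen.

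The strongest summit of distal 1p lay in an interval from 14769676 to 14770256, with its summit at 14769831. It had a fold enrichment of 29.6, with 155 ChIP fragments over a background of 2.39 input fragments and a −log10 q of 116.2. It ranked 85th in the whole list and 9th on chromosome 1. The next was a single-summit interval from 18085650 to 18085994, with 209 ChIP fragments, a background of 4 and a fold enrichment of 27. A site from 20204856 to 20205151 reached 24.4, with 171 ChIP fragments over a background of 3.53. These 3 sites lay in 3 different bins and none in the dense first 3 Mb.

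A site from 3712787 to 3713296 reached a fold enrichment of 21.8, with 137 ChIP fragments. One from 25429560 to 25430365 reached 20.2 with 211 fragments, and one from 17766067 to 17766547 also reached 20.2, with 250 fragments over a higher background of 7. The remaining 4 of the 10 strongest were at 8938172 with 19.8, 10532609 with 19.0, 11969664 with 18.4 and 23345872 with 18.4. The site at 8938172 belonged to an interval of 1646 bp with 4 summits and had the highest −log10 q of the segment, 152.0. Of these 10 summits, 5 were alone in their interval, as were 60.1% of all summits of the segment. None of the 10 had a background above the segment's median of 9, and 0 lay in the first 3 Mb. No summit of the list had more than 280 ChIP fragments. At up to 280 fragments, a fold enrichment of 18.4 is not reached above a background of 9. The first count therefore follows from that highest number and carries no further information. The high backgrounds of the first 3 Mb limit the second count too.

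**Figure D3:**
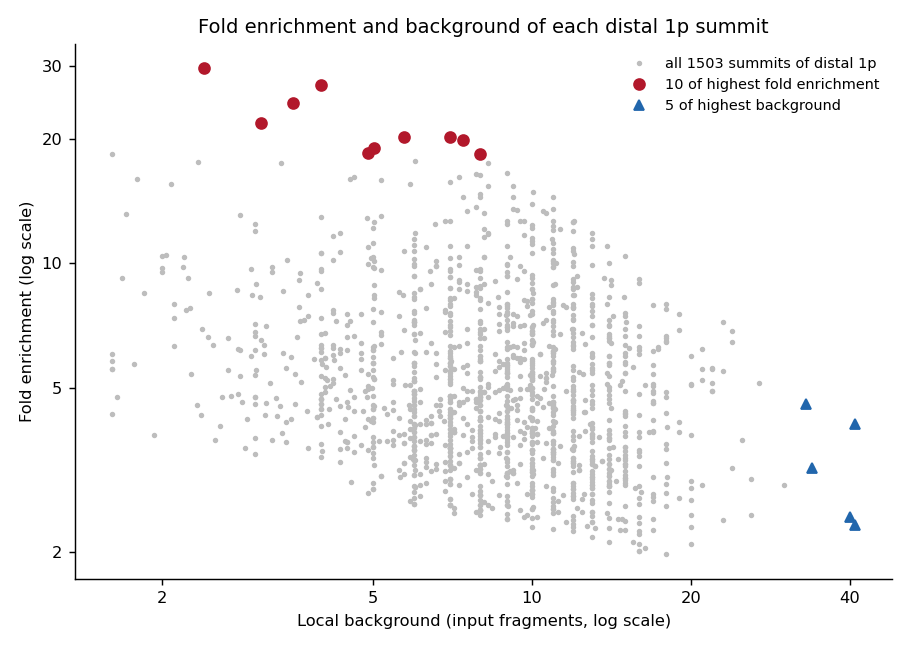
Each summit of distal 1p is plotted by its local background in input fragments and its fold enrichment, both on log scales. Red circles mark the 10 summits of highest fold enrichment, between 18.4 and 29.6 at backgrounds of 2.39 to 8, and blue triangles the 5 of highest background, between 33 and 41 input fragments at fold enrichments of 2.33 to 4.56.

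Ranking by the number of ChIP fragments brought other sites to the top. The highest number, 269, was found at 16767119 with a fold enrichment of 14.5 over 11 input fragments. At 1310662, 268 fragments over a background of 23 gave a fold enrichment of 7.2. At 16971250, 266 fragments over a background of 41 gave 4.09, and at 880360, 265 fragments over 24 gave 6.84. These numbers were close to 280, the highest in the list. At up to 280 fragments, much higher fold enrichments are not reached at such backgrounds. Whether 280 is a ceiling that holds these numbers down was not tested, so their order should be read with care. The fifth, with 259, was the site at 8938172, the only one among the 10 strongest by fold as well. The top 50 summits by fold enrichment and the top 50 by fragment number had 18 in common. Of the 50 by fold 2 lay in the first 3 Mb, and of the 50 by fragment number 17 did.

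A short stretch near 16.9 Mb held the highest input of the segment. The 5 summits whose background was 20 or more times the mean of the genome all lay between 16839904 and 16971445, over 132 kb. Their backgrounds ran from 33 to 41 input fragments, 20.5 to 25.5 times the mean. Of 20 such summits in the list outside the MYCN region of chromosome 2, 11 were on chromosome 1, these 5 among them. Those inside that region are not given here, so the share over the whole list is not known from these counts. The stretch held 10 summits in all, with a median background of 29.5 and fold enrichments from 2.33 to 10.4. Not all of it was high: the summits at 16872483 and 16887221 had backgrounds of 4 and 2.18, with 47 ChIP fragments each and fold enrichments of 6.23 and 9.78. The flanks of 1 Mb on either side held 129 summits, whose background was 9.38 and whose fold enrichment was 5.04 in the median. The stretch was delimited after its values were seen.

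Most intervals of distal 1p were short and held a single summit. The median width was 270 bp, with quartiles of 188 and 489.5, against 269 bp with quartiles of 187 and 501 in the rest of chromosome 1. A single summit was found in 903 intervals (79.0%, 95% CI 76.5 to 81.3), against 77.2% in the rest (95% CI 75.9 to 78.5) and 76.4% in the list. Intervals with 4 or more summits numbered 27 (2.36%, 95% CI 1.56 to 3.42), against 110 (2.67%, 95% CI 2.2 to 3.21). Neighbouring summits of an interval lay a median of 286.5 bp apart in the segment and 298 bp in the rest.

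The widest interval, from 859056 to 861358, spanned 2303 bp and held 6 summits with fold enrichments from 2.92 to 6.27. An interval from 27675913 to 27678110 also held 6 summits, with fold enrichments from 3.88 to 7.82. Others with 6 lay from 14924546 to 14926214, reaching 6.28, and from 6453095 to 6454582, reaching 9.18. A further 7 intervals held 5 summits, and the widest of these, from 16160847 to 16162896, reached 12.0 at 16161446 with 223 ChIP fragments.

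Intervals of distal 1p lay closer together than those of the rest of chromosome 1. For 828 of the 1143 intervals the nearest neighbour was at most 10 kb away (72.4%, 95% CI 69.8 to 75), against 60.5% in the rest of chromosome 1 (95% CI 59.0 to 62.0). The median gap between neighbours was 10.1 kb in the segment and 17.6 kb in the rest, and a higher density by itself shortens gaps. The longest stretch of the segment without a peak ran from 12719326 to 14026455, over 1307 kb, and 3 of the 5256 gaps of chromosome 1 were longer. The next were 655 kb from 3827647 to 4482923, 392 kb from 4787170 to 5179637, 271 kb from 2929332 to 3200617 and 260.5 kb from 12290236 to 12550711. Together the 46 gaps of over 100 kb took up 8.75 Mb, or 31.2% of the segment. In the rest of chromosome 1, leaving out the stretch around the centromere, 492 such gaps took up 57.3%, so long gaps filled less of distal 1p.

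Among chromosome ends of the same length, distal 1p belonged to a small dense group. The first and the last 28 Mb of chromosomes 1 to 22 and X gave 46 ends, which overlap on 2 short chromosomes. Distal 1p, with 53.7 summits per Mb, ranked 5th, after the last 28 Mb of chromosome 19 with 58.7, the last of chromosome 17 with 58.1, the first of chromosome 19 with 55.9 and the last of chromosome 22 with 54.3. The median of the other 45 ends was 25.1 per Mb. All 7 ends with at least 40 summits per Mb had a median fold enrichment under 5, as had 3 of the 39 sparser ends. One end, the last 28 Mb of chromosome 19, had a smaller share of summits at the genome-wide background than distal 1p, 0.243% against 0.399%, and the median over the other ends was 6.85%. The low share was therefore found at other dense ends too and was not particular to distal 1p.

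**Figure D4:**
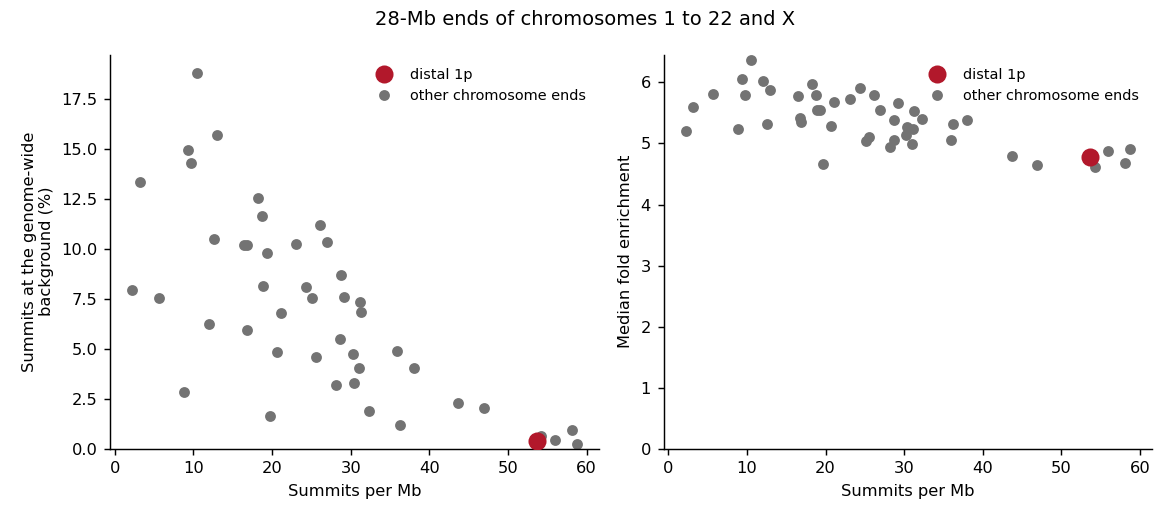
The 46 chromosome ends of 28 Mb are plotted by summits per Mb against the share of summits at the genome-wide background (left) and against the median fold enrichment (right). Distal 1p, the large red point at 53.7 summits per Mb, lies with the other dense ends at a share of 0.399% and a median fold enrichment of 4.77.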

How the data were processed

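The deposited files were 2 peak lists, 1 for each state. The submitters' processing notes name MACS2 2.1.1 and STAR 2.5.1b, together with deepTools 2.2.4, SAMtools 1.3.1 and Picard, and the build hg19. Not given in the sources used here are their settings, the handling of duplicates and how the 2 ChIP samples were combined. Each deposited row is 1 summit with the authors' fold enrichment (a ratio), −log10 p-value, −log10 q-value and an integer score, which is 10 times the −log10 q without its decimals. These describe and rank peaks within the list only. Positions are counted from 1.

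ChIP fragments and local background were solved from fold and p-value by the relations of MACS2. There the fold enrichment is the scaled fragment number over the background, with the same constant added to both. The ChIP fragment numbers given here are before scaling. The fragment length was 140 bp, and the highest number of ChIP fragments at a summit of the list was 280. Whether the handling of duplicates sets a ceiling there was not tested. A scale of 0.641 gave whole fragment numbers at 64657 of 64657 summits within 0.0005 of the −log10 p. The procedure was tested on simulated data. The genome-wide means were 17.9 ChIP and 11.5 input fragments per kb. Backgrounds within 0.001 of the lowest value counted as the genome-wide mean.

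Densities use lengths up to the last peak, unmappable sequence included. Shares and the density ratio have exact 95% binomial intervals, medians binomial order-statistic ones. Combined bounds of a difference set each part's lower bound against the other part's upper bound. They are therefore wider than a 95% interval of the difference. Neighbouring summits are not independent, nor are reads without molecular identifiers.

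Sites named were, by rule, the 10 of highest fold, 5 with most fragments, 5 of highest background, 5 intervals with most summits, the 3 widest, the 5 longest gaps, and the 5 densest and 5 emptiest bins (6 with a tie). Summits at the genome-wide mean were named after their values were seen. The members and rules were chosen with earlier results of these data known. Planned promoter and E-box shares were not run, since no hg19 annotation or sequence was used. Python 3.11.15, numpy 2.4.6, pandas 2.3.3, scipy 1.17.1 and matplotlib 3.10.9 were used.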

Additional observations from a re-analysis of the deposited data

How the results depend on the processing

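No paired analysis was possible because the files hold no list of a single replicate, which also means that none could be left out. The density ratio, 2.15, kept its direction under all 12 alternatives, from 1.80 for summits with a fold enrichment of at least 5 to 2.30 without a dense part of the long arm. It was 2.02 over bins with a summit, 1.94 without the longest stretch lacking a peak and 2.0 without the first 3 Mb. The difference in median fold enrichment, -0.53, was -0.74 for the strongest summit of each interval and -0.75 for intervals with 1 summit. It was -0.44 (-0.87 to 0.11) in bins with 30 to 49 summits, -0.38 (-0.72 to 0.09) with 50 to 69 and turned to 0.24 (-0.23 to 0.67) with 70 or more, and ChIP fragments in its place differed by 1. The difference in median background, 0.74 input fragments, was not stable. It was 1.16 against the rest of the short arm and 2 for intervals with 1 summit, but -0.11 at −log10 q values from 10 up, -0.26 without the first 3 Mb, and -0.44, -0.88 and -1.0 in bins with 30 to 49, 50 to 69 and 70 or more summits. The share with a fold enrichment of at least 10, lower by 2.33 percentage points (a difference of -2.33), had bounds that included 0 under 7 of the 12 alternatives and was higher by 1.32 in bins with 70 or more summits. The difference in the share at the genome-wide background, -6.85 points, stayed negative under all 12 alternatives. It was -4.91 at −log10 q values from 10 up, -8.64 for the strongest summits, -10.4 for intervals with 1 summit, and -4.13, -2.40 and -0.971 in the 3 classes of bin density. A neighbour was found for 54.2% of the intervals within 5 kb and for 87.0% within 20 kb, against 47.4% and 73.5% in the rest of chromosome 1. The rank among chromosome ends, 5, was 3 by intervals. Alternatives by bin density, without the first 3 Mb, without the longest stretch, for the ranks and all those of the share at the genome-wide background were chosen after seeing the data. No summit of the segment had fewer than 16 ChIP fragments, so weaker sites are not described.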
